A study of Mus musculus with 2 samples.

Results

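The inhibitory side of T cell control was examined through 8 genes in whole liver of mice. They are the ligand genes Cd274 and Pdcd1lg2, the tryptophan-degrading enzyme gene Ido1, and the receptor genes Pdcd1, Lag3, Havcr2, Ctla4 and Tigit. They were chosen by name, and 7 of the 8 had a probe with their symbol in the platform annotation, out of 19318 genes named there and measured. Tigit was not analysed here. The tissue was liver of 24-week-old animals, with 1 single-colour array for Twist2-Cre/A20fl/fl (called CKO here) and 1 for Twist2-Cre (called Control). Both groups carry Twist2-Cre, a recombinase driven from the Twist2 gene in mesenchymal lineages, and CKO mice also carry floxed alleles of A20. A20 is the product of Tnfaip3 and dampens NF-kB signalling by editing ubiquitin chains. By the design, cells outside the mesenchymal lineages keep the gene, which these arrays do not check. How many animals gave each RNA is not stated in the sources used here.

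T cells carry receptors that lower their activity when a partner on another cell binds them. The receptor encoded by Pdcd1 binds the products of Cd274 and Pdcd1lg2, the one encoded by Ctla4 binds those of Cd80 and Cd86, and the one encoded by Lag3 binds MHC class II and the liver protein encoded by Fgl1. Cd274 and Ido1 are textbook targets of interferon-gamma in many cell types, and the enzyme made by Ido1 removes tryptophan, which T cells need. In liver, Kupffer cells and endothelial cells are known sources of the Cd274 product. The comparison asks whether the ligand side and the receptor side differ in transcript level between the genotypes.

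Each genotype had 1 array, so no difference could be tested or checked against replicates, and precision is limited by that number. Blank spots, which carry no gene probe, gave the background on each array. They averaged 69.3 scanner units with an SD of 1.45 on the CKO array, against 67.2 with an SD of 1.17 on the Control array (384 spots each). A probe was called above background when its spot exceeded the blank mean by 2 SD, which 73.6% of gene probes did on the CKO array and 73.8% on the Control array. Because 15 blank spots on the CKO array and 16 on the Control array also passed that limit, a call just above it carries little weight. The liver label was borne out by albumin, Alb, with deposited intensities of 36770 in CKO liver and 37445 in Control liver. The targeted gene Tnfaip3 had deposited intensities of 38 in CKO liver and 41 in Control liver. Which part of the transcript its probe reads is not known, so this value does not check the label.

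Cd274, which encodes the ligand PD-L1, was the member with a large difference, and its neighbour Pdcd1lg2, which encodes PD-L2, was not above background on either array. Their promoters are shown because these adjacent genes of chromosome 19 encode ligands of the same receptor and gave unlike signals. The windows run from 250 bases before to 50 bases after a RefSeq start of each gene (GRCm38.p6, plus strand). They are chr19:29367188-29367487 for Cd274 and chr19:29410669-29410968 for Pdcd1lg2. The RefSeq span of Cd274 used below for its neighbours begins further upstream, at 29362107, so the Cd274 window lies inside that span. Capitals mark every match, on either strand, to 4 searched patterns. These are the gamma-activated sequence TTCNNNGAA, the core of the interferon-stimulated response element GAAANNGAA, the interferon regulatory factor element AANNGAAA, which shares letters with that core, and the kappaB consensus.
Cd274: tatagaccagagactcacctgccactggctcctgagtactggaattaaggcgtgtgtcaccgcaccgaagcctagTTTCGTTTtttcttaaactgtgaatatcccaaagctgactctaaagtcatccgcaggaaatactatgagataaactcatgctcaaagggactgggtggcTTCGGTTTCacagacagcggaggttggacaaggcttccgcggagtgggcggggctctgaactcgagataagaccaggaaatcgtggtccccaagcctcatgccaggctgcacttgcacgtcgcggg
Pdcd1lg2: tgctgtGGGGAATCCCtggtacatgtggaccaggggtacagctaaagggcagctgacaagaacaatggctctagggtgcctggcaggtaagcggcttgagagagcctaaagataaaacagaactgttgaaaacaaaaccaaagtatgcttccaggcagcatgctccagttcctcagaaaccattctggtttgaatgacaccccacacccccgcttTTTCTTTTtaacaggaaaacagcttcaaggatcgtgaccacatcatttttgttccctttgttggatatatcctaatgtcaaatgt

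Each window held 1 match to the interferon regulatory factor element, beginning 175 bases before the start in Cd274 and 35 bases before it in Pdcd1lg2. The Cd274 window also held 1 match to the response element core, 76 bases before the start, which was lost when the core was extended by 1 further A. Pdcd1lg2 also held 1 kappaB match. Neither window held the gamma-activated sequence. Such matches are common by their letters alone. Of 32851 promoter windows of this length, 23.9% held the interferon regulatory factor element, 8.56% the response element core (3.44% with the further A), 8.46% the kappaB consensus and 8.30% the gamma-activated sequence. The Cd274 window was richer in C and G (52.7%, with 15 CpG) than that of Pdcd1lg2 (46%, with 3 CpG). RefSeq promoters were matched for 6 of the 8 members, of which 3 held the interferon regulatory factor element (Pdcd1 besides these) and 2 the response element core (Ctla4 besides Cd274).

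On the ligand side, the Cd274 spot read 193 on the CKO array and 89.2 on the Control array. That is 85.5 blank SDs above the blank mean in CKO liver and 18.9 in Control liver, and no blank spot on either array reached it. In the authors' deposited intensities, which have the blank level removed, Cd274 stood at 102 in CKO liver and 19 in Control liver, 5.37-fold higher in CKO liver. Shifting both spots against each other by 2 blank SDs keeps this ratio between 4.75 and 6.16. That range covers the scatter of the background only, and neither the spot-to-spot error of brighter signals nor the spread between animals.

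The normalized scale adds an offset of 50 before log2, which steadies dim genes and shrinks their ratios. On it, Cd274 had a log2 level of 7.45 in CKO liver and 6.25 in Control liver, a log2 ratio (CKO over Control) of 1.20. It ranked 64th from the highest among 14143 genes above background on both arrays, of which 90 (0.636%) were at least 2-fold higher in CKO liver and 11 (0.0778%) at least 2-fold lower. Among the 1000 genes closest to it in level, 4 had a higher ratio, and the middle of their ratios, from the 5th to the 95th percentile, ran from -0.26 to 0.33. In the deposited intensities, it ranked 59th of 14638 genes, of which 3.81% were higher in CKO liver by 2-fold or more and 1.08% lower by that much. Cd274 fell below 2-fold and to rank 1355 of 14143 when each spot's own local background column was used in place of the blank spots. Its log2 ratio was then 0.32. That column read 147 around the Cd274 spot on the CKO array and 75.7 on the Control array, and across gene spots it followed the spot's own signal (Pearson r of the log2 values 0.972 on the CKO array and 0.988 on the Control array).

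**Figure D1:**
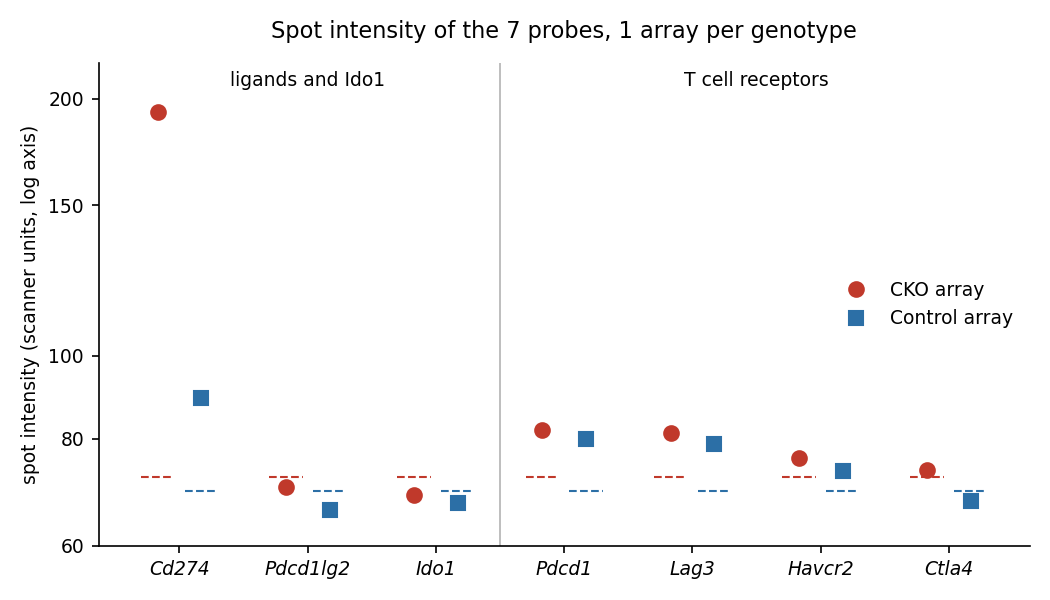
Spot intensity of the 7 probes (scanner units, log axis) on the CKO array (circles) and the Control array (squares), with a dashed line at each array's background limit, the blank mean plus 2 SD. Cd274 stands clear of the limit on both arrays and reads 193 in CKO liver against 89.2 in Control liver, while Pdcd1lg2 and Ido1 lie below the limit on both.

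Pdcd1lg2 read 70.3 on the CKO array and 66.1 on the Control array. Of the 384 blank spots, 85 (22.1%) were at least as bright on the CKO array and 313 (81.5%) on the Control array, so both readings lie inside the scatter of empty spots. No fold is given, since both arrays are below the limit. Ido1 read 68.8 on the CKO array and 67.4 on the Control array, again among the blank spots, of which 59.4% were at least as bright on the CKO array and 39.1% on the Control array. The authors' table lists neither gene on either array. Of all named genes, 4232 (21.9%) were above background on neither array, so this state is common and was reached by 2 of the 3 members on this side. A rise in either transcript within the background could not be detected here.

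On the receptor side, Pdcd1, which encodes PD-1, read 81.8 on the CKO array and 79.96 on the Control array, with deposited intensities of 10 in CKO liver and 11 in Control liver. Lag3, whose receptor resembles CD4 and binds MHC class II, read 81.2 on the CKO array and 78.9 on the Control array, with a deposited intensity of 10 in both livers. Both genes were measured clearly above background, at 8.67 and 8.27 blank SDs on the CKO array and 10.96 and 10.04 on the Control array, and their signals were nearly the same in the 2 livers. Havcr2, which encodes the receptor TIM-3 of T cells and myeloid cells, had spot signals of 76.1 on the CKO array and 73.3 on the Control array. Its deposited intensities were 6 in CKO liver and 5 in Control liver, and 1 unit of that table is less than the blank SD (1.19 units on the CKO array and 1.004 on the Control array). 

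On the offset scale the log2 ratio was -0.02 for Pdcd1, -0.01 for Lag3 and 0.00 for Havcr2. Their median was -0.01, beside a median of -0.02 over all 14143 genes, and 0 of the 3 passed 2-fold. The offset is larger than their signal above the blank mean, which pulls their ratios towards 0 and makes 2-fold hard to reach. The 3 ratios lie near the middle of all genes, of which 50.2% had a lower ratio than Pdcd1, 54.8% than Lag3 and 59.5% than Havcr2. Near-equal readings of dim spots do not show equal transcript levels. Shifting the background by 2 blank SDs on each array gives a fold, on the deposited scale, of between 0.612 and 1.42 for Pdcd1, between 0.619 and 1.52 for Lag3 and between 0.438 and 2.42 for Havcr2. A 2-fold difference of Havcr2 therefore lies within the background scatter, whereas the 5.37-fold difference of Cd274 lies outside the range of each of these 3 receptors.

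Ctla4, the receptor that competes with the costimulatory receptor Cd28 for their shared ligands, was above background on the CKO array only. It read 73.6 there, 2.98 blank SDs above the mean, and 67.7 on the Control array, 0.434 SDs above it. On the CKO array 3 of the 384 blank spots were at least as bright. The lowest normalized signal above background was taken as the level on the Control array. On the offset scale, Ctla4 was then at least 1.03-fold higher in CKO liver. This lower limit is close to 1, and the size of the difference above it is not known. Of all named genes, 2.40% were above background on the CKO array only and 2.48% on the Control array only.

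**Figure D2:**
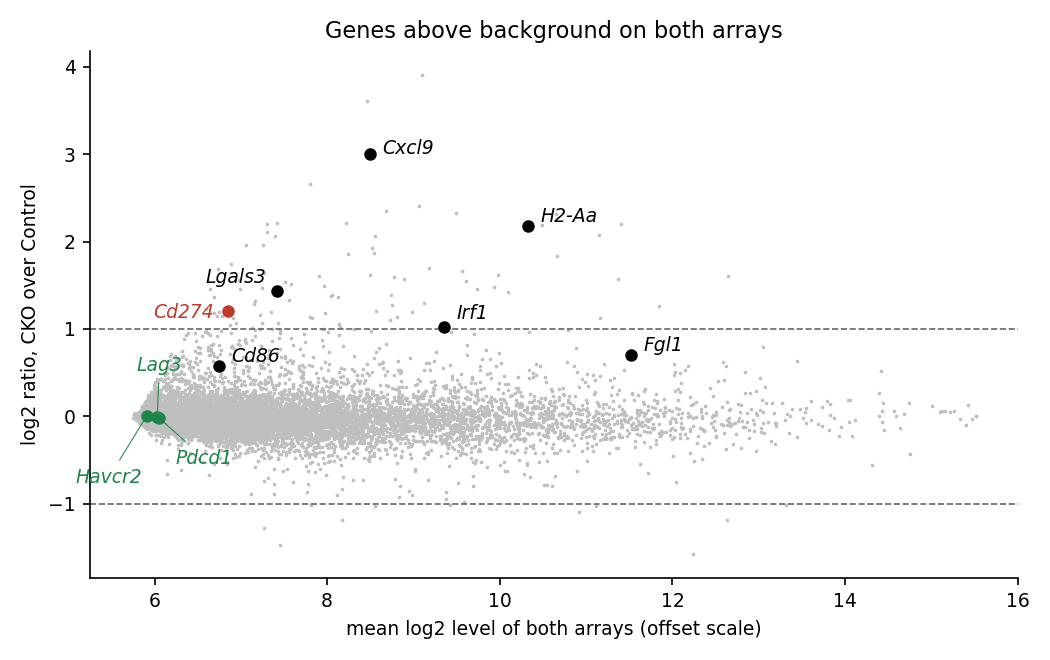
Log2 ratio of CKO over Control against the mean log2 level of both arrays, on the offset scale, for 14143 genes above background on both arrays (grey points), with dashed lines at 2-fold. Cd274 (red) lies at 1.20, above nearly all genes of its level, whereas Pdcd1, Lag3 and Havcr2 (green) lie at the dim end within 0.02 of 0.

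The ligand and receptor sides thus differed through 1 gene. On the offset scale, Cd274 had a log2 ratio of 1.20 and the 3 receptors above background on both arrays had ratios between -0.02 and 0.00. That scale shrinks the ratios of these dim receptors more than that of Cd274. With Pdcd1lg2 and Ido1 below background, the ligand side has no second measured member that could share or contradict the value of Cd274. Taken over all 3 ligand-side genes with no filter on dim probes, the median ratio was 0.04.

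Of 13 listed binding partners of the receptors, other than the members, 12 were above background on both arrays, 11 of them with a ratio above 0 (9 against the local background column), and on the offset scale 4 were at least 2-fold higher in CKO liver (5 in the deposited intensities, with Cd86). Their median log2 ratio on the offset scale was 0.43, beside -0.02 over all genes, of which 5967 of 14143 had a ratio above 0. The 4 were 3 MHC class II genes, whose products bind the Lag3 receptor, and Lgals3, a galectin also reported as a partner of that receptor. H2-Aa had deposited intensities of 2209 in CKO liver and 471 in Control liver. H2-Eb1 had 1281 in CKO liver and 226 in Control liver. H2-Ab1 had 584 in CKO liver and 109 in Control liver. Lgals3 had 190 in CKO liver and 43 in Control liver. The stretch that each probe reads is not known, so how the signals divide between these class II genes is uncertain.

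Fgl1, a protein that hepatocytes secrete and another partner of the Lag3 receptor, had 2949 in CKO liver and 1947 in Control liver, a log2 ratio of 0.70. Against the local background column this ratio was 0.14. Lag3 itself had 10 in both livers, whereas these 5 partners of its receptor read higher in CKO liver on the offset scale, with plain subtraction, against the local background column and in the deposited intensities.

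Of the Ctla4 receptor's ligands, Cd86 had 65 in CKO liver and 29 in Control liver, a log2 ratio of 0.57 on the offset scale. The related ligand Cd80 had 5.5 in CKO liver and 4 in Control liver as the mean of 2 probes. Of the partners of the Havcr2 receptor, Lgals9 had 672 in CKO liver and 564 in Control liver, a log2 ratio of 0.29 on the offset scale and of 2.13 against the local background column, where Cd86 was at 0.13. Ceacam1 had 43 in CKO liver and 40 in Control liver, and Hmgb1 had 49 in CKO liver and 46 in Control liver. Of the ligands of the Tigit receptor, Pvr was not above background on either array, and Nectin2 and Nectin3 had log2 ratios of 0.01 and -0.07.

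**Figure D3:**
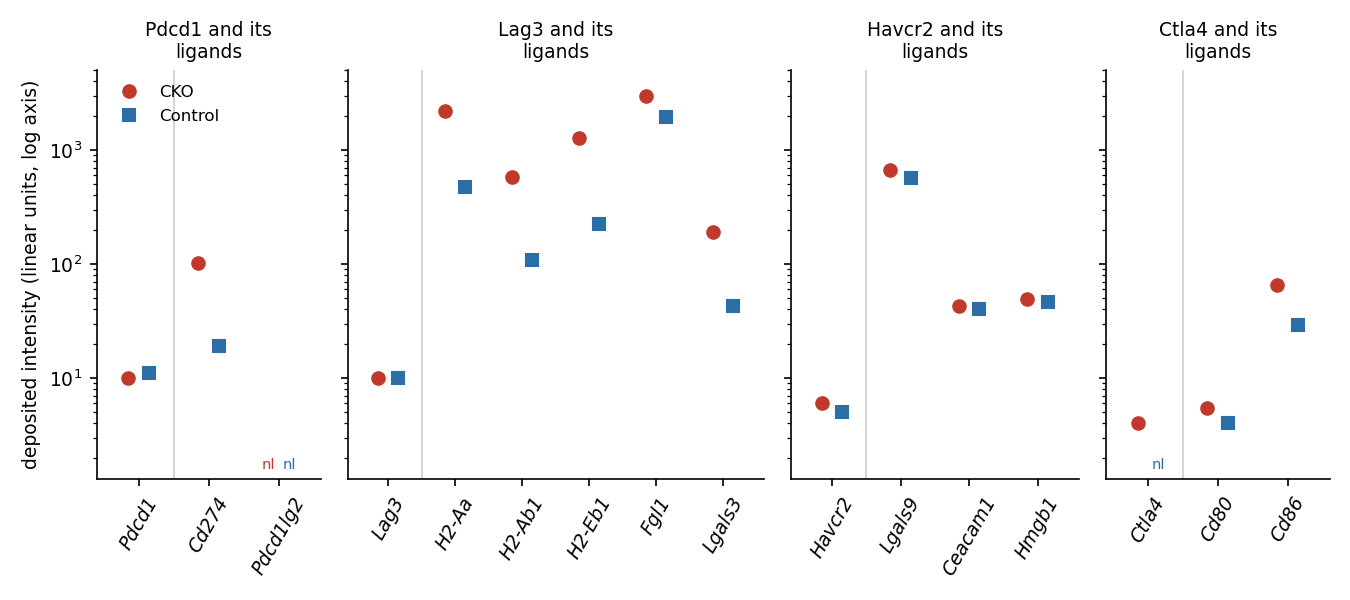
Deposited intensity (linear units, log axis) of 4 receptor genes and of the genes of their ligands, in CKO liver (circles) and Control liver (squares), where nl marks a probe that the authors' table does not list. Pdcd1 and Lag3 lie at 10 or 11 in both livers, while Cd274, the 3 MHC class II genes and Lgals3 lie higher in CKO liver.

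Genes that relay interferon-gamma were read because Cd274 and Ido1 are known targets of that cytokine. Of 11 measured genes of the signalling list, 10 had a ratio above 0 (8 against the local background column) and on the offset scale 1 was at least 2-fold higher in CKO liver, with a median log2 ratio of 0.27. In the deposited intensities 4 were, and the median log2 ratio was 0.62. The gene past 2-fold on both scales was Irf1, the transcription factor that binds interferon response elements, with deposited intensities of 722 in CKO liver and 348 in Control liver. Irf8, a factor of myeloid cells, had 99 in CKO liver and 33 in Control liver. Socs1, the feedback inhibitor of Janus kinases, had 28 in CKO liver and 5 in Control liver. The cytokine gene Ifng itself was dim, with 11 in CKO liver and 4 in Control liver, and a log2 ratio of 0.18. The receptor chains went different ways, with log2 ratios of 0.40 for Ifngr1 and -0.30 for Ifngr2. Ifngr1 changed sign with the local background column (-0.19).

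Of 18 measured interferon-gamma targets, 18 had a ratio above 0, also against the local background column, and 15 were at least 2-fold higher in CKO liver on the offset scale (16 in the deposited intensities), with a median log2 ratio of 1.69 on the offset scale. This list was chosen with results of these arrays known, so its direction is no independent evidence. Cd274 lay in its lower part on the offset scale, where 14 targets had a larger ratio than Cd274 and 4 a smaller one, and in its middle in the deposited intensities, with 9 on each side. The offset shrinks the ratios of dim genes most, and Cd274 was dim in Control liver. The target closest to it in both signals was the guanylate-binding protein gene Gbp3, with 103 in CKO liver and 19 in Control liver. Ido1, at the level of blank spots, had no measured part in this pattern.

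The other genes of tryptophan breakdown and use lay on both sides of 0. Of 12 measured genes, 12 were above background on both arrays, 5 had a ratio above 0 and 7 below it on the offset scale, and 0 passed 2-fold, with a median of -0.04. Against the local background column the median was -0.37, with Tdo2 at -1.46 and Kynu at 1.14. Tdo2, the enzyme of hepatocytes that carries out the same first step as Ido1, was bright, with 5025 in CKO liver and 5546 in Control liver. Haao, which acts late in the pathway, had the ratio furthest from 0 in the list, -0.39, with 732 in CKO liver and 1023 in Control liver. Aadat, an aminotransferase that makes kynurenic acid, had 0.33 on the offset scale, and changed sign with the local background column (-0.62). Ido2, the relative of Ido1, had 13 in CKO liver and 18 in Control liver.

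Costimulatory genes, whose products act against the inhibitory receptors, were dim. Of 14 measured genes, 7 were above background on both arrays, all 7 with ratios above 0 and 0 past 2-fold on the offset scale, with a median of 0.13. In the deposited intensities 2 of 9 listed genes were at least 2-fold higher in CKO liver. These 2 were Tnfrsf18, with 18 in CKO liver and 8 in Control liver, and Tnfrsf9, with 9 in CKO liver and 4 in Control liver. Cd28 had 14 in CKO liver and 8 in Control liver. Cd40, a receptor of antigen-presenting cells, had 20 in CKO liver and 14 in Control liver. Icos had 17 in CKO liver and 16 in Control liver. Against the local background column 4 of the 7 (Cd28, Cd40, Icos and Tnfrsf4) were below 0.

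**Figure D4:**
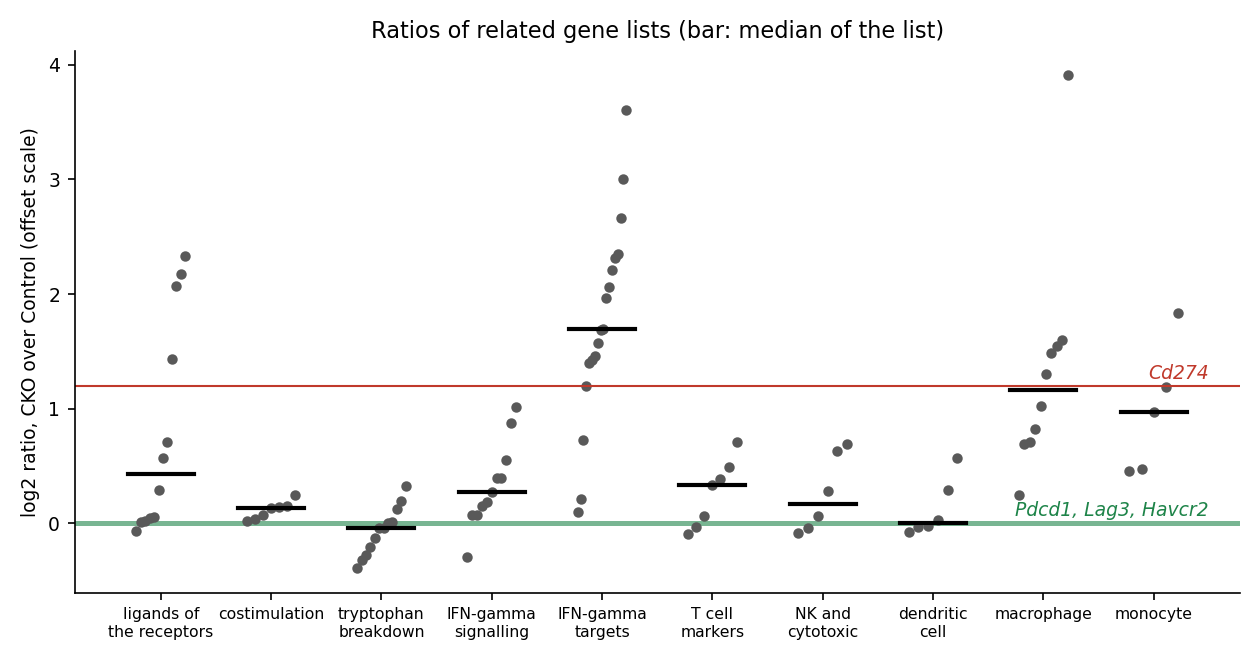
Log2 ratio of CKO over Control on the offset scale for genes of 10 lists above background on both arrays (points) with each list's median (bar), the red line at Cd274 and the green band at Pdcd1, Lag3 and Havcr2. Interferon-gamma targets have a median of 1.69 and macrophage markers one of 1.16, while the T cell marker median is 0.33 and the tryptophan breakdown median -0.04.

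The cells that carry these transcripts were read through marker lists, since in whole tissue fewer cells of a type and less RNA per cell cannot be told apart. T cell markers were dim. Of 11 measured, 7 were above background on both arrays, 5 with a ratio above 0, and 0 were past 2-fold on the offset scale (median 0.33), but 4 of 7 were past 2-fold higher in the deposited intensities. Cd8b1, a CD8 chain, had 34 in CKO liver and 3 in Control liver. Cd3d, part of the T cell receptor complex, had 39 in CKO liver and 19 in Control liver. Cd2 had 17 in CKO liver and 4 in Control liver, and Cd4 had 8 in CKO liver and 6 in Control liver. Cd3g was above background on the CKO array only, and the defining marker Cd3e, with Trat1 and Themis, on neither array. Summed over listed probes, the T cell markers stood at 191 in CKO liver and 74 in Control liver. Most of this gap came from Cd8b1 and from Cd8a, which had 56 in CKO liver and 9 in Control liver. These Cd8a values are from the only listed probe of 2, and over both probes the log2 ratio on the offset scale was 0.49. The receptor genes Pdcd1 and Lag3 did not read higher in CKO liver in the deposited intensities, and neither did the T cell markers Cd247 and Cd5. Cd247 had 24 in CKO liver and 28 in Control liver, and Cd5 had 4 in CKO liver and 5 in Control liver. The regulatory T cell marker Foxp3 had 52 in CKO liver and 54 in Control liver, from the only listed probe of 2.

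Natural killer and cytotoxic markers summed to 384 in CKO liver and 296 in Control liver. Most of each sum was Tbx21, with 223 in CKO liver and 242 in Control liver. Eomes had 16 in CKO liver and 17 in Control liver. Nkg7 had 26 in CKO liver and, not listed for Control liver, added nothing to that sum. Of 6 genes above background on both arrays, 4 had a ratio above 0, with a median of 0.17 on the offset scale. In the deposited intensities 4 of 7 listed genes were at least 2-fold higher in CKO liver, with a median log2 ratio of 1.32. Gzma, a granzyme, had 36 in CKO liver and 5 in Control liver, while the defining markers Ncr1 and Klrb1c were above background on neither array. Macrophage markers summed to 6707 in CKO liver and 2040 in Control liver. All 10 of them that were above background on both arrays had a ratio above 0, 6 at least 2-fold on the offset scale (median 1.16) and 8 in the deposited intensities, among them Marco at 1707 in CKO liver and 74 in Control liver. Clec4f and Vsig4 changed sign with the local background column (-0.01 and -0.10). Monocyte markers summed to 3229 in CKO liver and 1003 in Control liver, with 5 of 5 genes above 0 and a median of 0.97 on the offset scale. Dendritic cell markers summed to 122.5 in CKO liver and 76.5 in Control liver, with 3 of 6 genes above 0, a median of 0.00, and Flt3 and Clec9a above background on the CKO array only. Sinusoidal endothelial markers summed to 784 in CKO liver and 1182 in Control liver, mostly from Clec4g, with 521 in CKO liver and 776 in Control liver. Of their 5 genes, 2 were above 0, and the median was -0.43 on the offset scale and -0.095 against the local background column. Neutrophil markers summed to 486 in CKO liver and 412 in Control liver, mostly from Ly6g, with 345 in CKO liver and 356 in Control liver. Of 4 genes above background on both arrays, 4 were above 0 (3 against the local background column), with a median of 0.43 on the offset scale. S100a9 had 50 in CKO liver and 15 in Control liver. Cd274 thus read higher in CKO liver along with the macrophage and monocyte markers and with several T cell, cytotoxic and neutrophil markers. The part of any of these cells in the Cd274 difference was not tested.

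The nearest genes on chromosome 19 were read beside Cd274, taking 5 protein-coding RefSeq genes on each side. Of these 10 neighbours, 7 were above background on both arrays, and 0 of them were past 2-fold on the offset scale or in the deposited intensities. Their log2 ratios ran from 0.00 to 0.40 and their deposited folds from 1.05 to 1.67. Jak2, a kinase of the interferon-gamma receptor, had 37 in CKO liver and 23 in Control liver. Plgrkt, the next gene on one side, had 113 in CKO liver and 82 in Control liver, and Pdcd1lg2, the next on the other side, was below background. The RefSeq spans of Plgrkt and Cd274 overlap, and the positions that the probes read are not known.

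**Figure D5:**
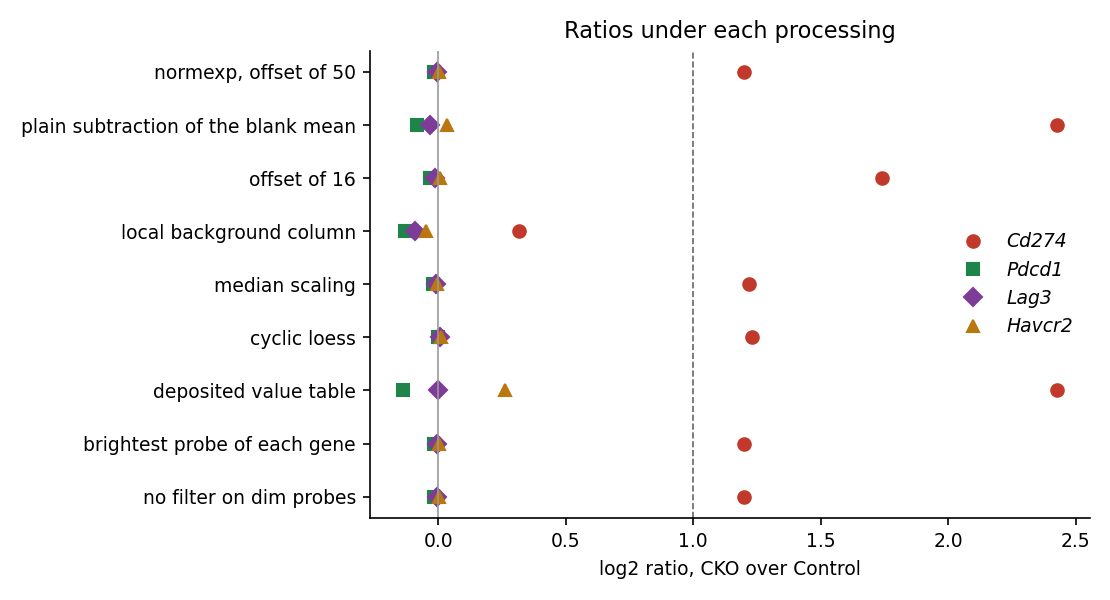
Log2 ratio of CKO over Control for Cd274, Pdcd1, Lag3 and Havcr2 under 9 ways of processing, with a solid line at 0 and a dashed line at 2-fold. Cd274 lies between 0.32, with the local background column, and 2.43, with plain subtraction, and the 3 receptors lie between -0.14 and 0.26.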

How the data were processed

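Total RNA was amplified with an amino allyl kit and coupled to a Cy5 dye, per the labels' protocols. Per the file headers, the scanner measured 1 colour at 3 gains, joined by least-squares lines, and the files give a median intensity for every spot and for the area around it. The authors' deposited value table holds intensity on a linear scale. No source used here says how it was made. Tested on the values, subtracting from each spot a trimmed mean of the blanks (5% off both tails) and multiplying by 0.825 (CKO) or 0.859 (Control) gives its entries within 0.759 and 1.53 units. Its median is 25 on both arrays. It is not centred on genes, and as a column is 1 sample's level, no direction is in doubt.

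Here, spots were corrected with normexp (limma 3.58.1, R 4.3.3) against the mean of the blank spots with an offset of 50, then control spots were dropped and both arrays quantile-normalized on the log2 scale. The local background column was not the main choice because it follows the spot's own signal, as an earlier look at these files had found. Probes with a flag (4 on the Control array) were left out. A gene's value is the mean of its probes (of its listed probes for the deposited intensities), and each of the 7 members has 1 probe. Names came from the platform annotation: 20686 of 23469 probes had 1 symbol, 2783 had none, and 20552 matched RefSeq (GRCm38.p6) by gene ID. A probe reads one stretch, and levels of different probes are not compared as amounts. With 1 array per genotype no test was made. Genes past 2-fold were counted. The named genes are the 8 members, Tnfaip3, and members of the related lists, mainly those with the largest ratios. Named outside this rule, after their values were seen, were Gbp3, Cd4, Cd5, Cd247, Eomes, Nkg7, Clec4f, Vsig4, Il10, Btla and Cd160. So were the markers named as below background and the genomic neighbours. The response element core was shortened to 9 letters after a longer form had been searched. Members and lists were chosen with earlier results of these data known. The processing was tested on simulated arrays. Known folds were placed there only on probes brighter than those of Pdcd1, Lag3 and Havcr2, so folds at the level of these receptors were not tested. The alternatives were plain subtraction, an offset of 16, the local background column, the deposited table, median scaling, cyclic loess, the brightest probe and no filter on dim probes.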

Additional observations from a re-analysis of the deposited data

How the results depend on the processing

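No paired analysis was possible because each genotype has 1 array, and no replicate could be left out for the same reason. The log2 ratio of Cd274, and with it the median of the ligand side, was 2.43 with plain subtraction of the blank mean, 1.74 with an offset of 16, 2.42 in the deposited table and 0.32 against the local background column, which ended its 2-fold call. The ligand-side median was 0.041 with no filter on dim probes, because Pdcd1lg2 and Ido1 then enter. Against the local background column Pdcd1 was at -0.13, Lag3, like the receptor median, at -0.091, and Havcr2 at -0.046. In the deposited table Pdcd1 was at -0.14 and Havcr2 at 0.26, a step of 1 unit in each. Median scaling, cyclic loess and the brightest probe moved the ratios of these 4 genes by less than the spread of genes at their level. The number of genes at least 2-fold higher in CKO liver was 90, against 431 with plain subtraction, 181 with an offset of 16, 432 against the local background column and 557 in the deposited table. The number at least 2-fold lower was 11, against 84, 19, 197 and 158 in the same order. The median over all genes stayed between -0.05 and 0.00. Signal over background limits Pdcd1lg2, Ido1 and Ctla4 to bounds or no value, and Havcr2 to a range that includes 2-fold either way.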

Other observations

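Further inhibitory genes outside the members were mixed. Of 21 measured genes, 17 were above background on both arrays, 9 with a log2 ratio above 0 and 8 below it, and 0 were past 2-fold on the offset scale (median 0.01). In the deposited intensities 4 were at least 2-fold higher in CKO liver. Pilra, an inhibitory receptor of myeloid cells, had the largest ratio on the offset scale, with deposited intensities of 139 in CKO liver and 67 in Control liver. Lgals1, a galectin, had 595 in CKO liver and 414 in Control liver, and changed sign with the local background column (-0.13). Lair1, a collagen receptor of leukocytes, had 23 in CKO liver and 9 in Control liver. Arg1, which in hepatocytes is an enzyme of the urea cycle, had 5738 in CKO liver and 8159 in Control liver. Il10, an inhibitory cytokine, had 13 in CKO liver and 14 in Control liver. The lymphocyte receptors Btla and Cd160 had 98 and 149 in CKO liver, against 101 and 187 in Control liver.

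Regulators associated with T cell exhaustion lay on both sides of 0. Of 13 measured genes, 10 were above background on both arrays, 4 with a ratio above 0 and 6 below it, and 0 past 2-fold on the offset scale (median -0.01), with 3 at least 2-fold higher in CKO liver in the deposited intensities. Batf, an AP-1 family factor, had 17 in CKO liver and 5 in Control liver, and Nr4a1, a nuclear receptor induced by antigen receptor signals, had 21 in CKO liver and 10 in Control liver. Tox had 48 in CKO liver and 34 in Control liver. Nr4a1 had a ratio of -0.04 against the local background column. Some of these genes are also in the marker lists above.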
